A study of Caenorhabditis elegans with 12 samples.

Results

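The broad peaks of H3K4me3 (histone H3 trimethylated at lysine 4) described here are those at least 900 bp wide in the authors' H3K4me3 peak list from *Caenorhabditis elegans* larvae. They were chosen by their width in that list, and 341 of its 1562 peaks (21.8%) met the rule. The whole series lists 2186 peaks, of which the other 624 belong to the intestinal transcription factor ELT-2. Every sample came from wild-type N2 larvae at L3 kept at 25 °C in liquid culture with HB101 bacteria, harvested 24 to 26 h after they were fed, and the labels name no mutation and no drug treatment. For ChIP the chromatin was fixed in 1% formaldehyde for 10 min. The 12 libraries comprise 2 of H3K4me3 chromatin immunoprecipitation (ChIP), 3 of ELT-2 ChIP, 2 of mock IgG ChIP, 3 of input DNA and 2 of RNA-seq.

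H3K4me3 is deposited by the SET1/COMPASS family of methyltransferases and is found at the promoters of transcribed genes, where it flanks the start of transcription. In mammals, unusually wide H3K4me3 domains are known at genes that define a cell's identity. Broad here means only a width of 900 bp or more, and whether these peaks are like such domains was not tested. ELT-2 is the main GATA-type factor of the worm intestine from its early differentiation onward. The larvae were taken whole, so each peak pools the mark over all tissues and these cannot be told apart.

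There was 1 list for the 2 H3K4me3 libraries, labelled replicates 2 and 3, so no peak has a value per library and the spread between replicates cannot be given. Read depth is unknown here. The width chose the broad peaks, and the score and summit come from the same ChIP signal, so these are given as descriptions and carry no test. Position along the genome and distance to ELT-2 were not used by the rule. Peaks of 1 list are not replicates, so no test was run on these either, and the 95% intervals of shares and medians cover counting error only, with each peak taken as independent. Positions are 1-based in ce10, and left means the end of a chromosome or peak with the lower coordinate. Sites are named by position, as no ce10 genes were used here.

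Broad peaks held a large part of the sequence under H3K4me3 peaks. They covered 469.4 kb, or 43.7% of the covered length, while the 1221 narrower peaks covered 603.8 kb. Broad peaks were chosen by width, so their share of the length had to exceed their 21.8% of the list. Their median width was 1223 bp, with an interquartile range from 1027 to 1526 bp and a longest peak of 4501 bp. Narrower peaks had a median of 456 bp and a shortest of 213 bp. Widths fell off without a gap at the threshold. Just inside it lay peaks of 900 bp on II from 9056477 to 9057376 and on IV from 2212092 to 2212991, and of 904 bp on I from 5691743 to 5692646. Their scores were 159.64, 45.66 and 39.82. Just outside lay peaks of 899 bp on III from 7179808 to 7180706, of 897 bp on IV from 4747695 to 4748591 and of 896 bp on I from 9163878 to 9164773. Their scores were 42.41, 86.03 and 160.54, so the scores on either side of the threshold covered a like range.

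The highest scores of the list belonged to broad peaks, but many broad peaks scored low. The score is the caller's own value for each peak, on a scale not given in the sources used here, and serves only to rank peaks within the list. The median score was 90.2 in broad peaks (interquartile range 44.9 to 176.5) and 52.4 in narrower ones (37.4 to 88.6). Broad peaks made up all 10 of the highest scores in the list and 55 of the highest 100. With the list cut by score into 4 equal classes, broad peaks were 37.9% of the highest class, 19.2% of the next, 15.6% of the one below and 14.6% of the lowest. At the other end, 118 of the 341 broad peaks scored below the list median of 57.0. Scores of broad peaks ran down to 30.08, next to the lower limit of the list.

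Among broad peaks, more width did not go with a much higher score. Spearman's rho between width and score was 0.11 over the 341 broad peaks and 0.34 over the 1221 narrower ones, given as a description since the points share their libraries. The median score was 80.8 in the 164 peaks of 900 to 1199 bp and 105.2 in the 128 peaks of 1200 to 1799 bp. In the 49 peaks of 1800 bp or more it was 72.1, with quartiles at 40.5 and 214.7, so the widest class held both weak and very strong peaks.

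**Figure D1:**
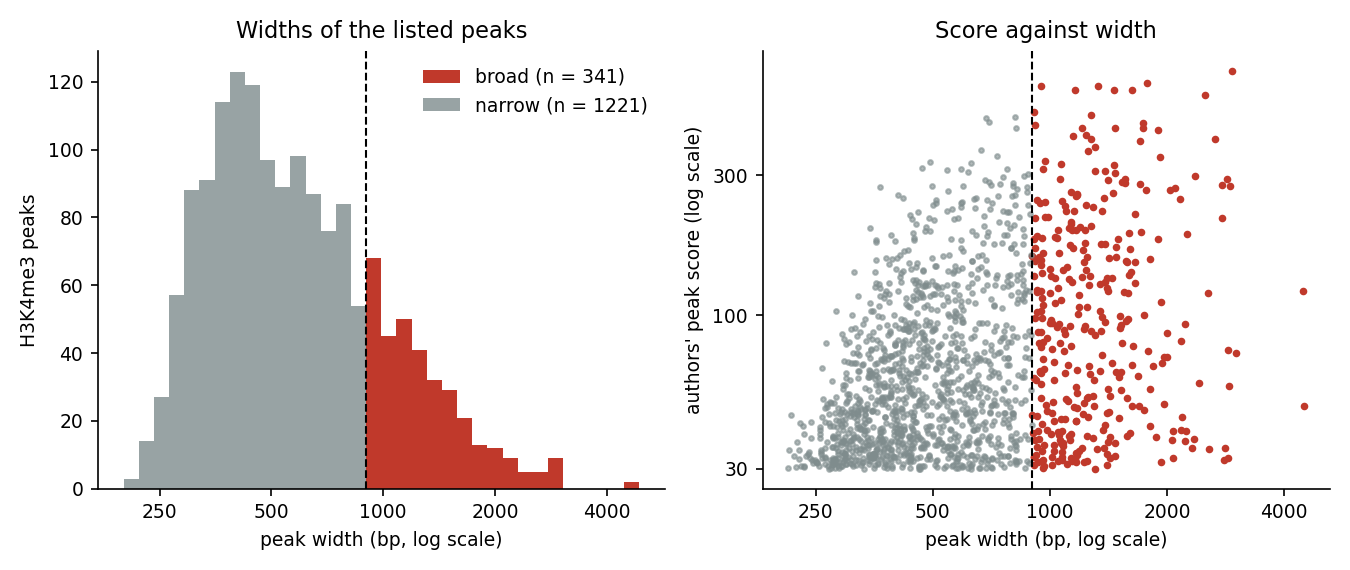
Left, number of H3K4me3 peaks by width (bp, log scale), with broad peaks in red, narrower ones in grey and the 900 bp threshold dashed. Right, the authors' score (log scale) against width for each peak, showing broad peaks with scores from 30.08 to 680.88 and narrower ones from 30.01 to 473.88.

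The widest and the strongest broad peaks were mostly different sites. The widest, on IV from 3998922 to 4003422, was 4501 bp long and scored 49.1, below the list median. The second, on I from 14856174 to 14860658, was 4485 bp long and scored 121.1. The third, on IV from 3609246 to 3612263, was 3018 bp long and scored 74.7. Of the 10 widest, 6 were on IV, 2 on I, 1 on III and 1 on V, and 6 scored below the median of the broad peaks. The weakest of them, on IV from 916565 to 919442, was 2878 bp long with a score of 32.8.

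Only the site on III from 13462201 to 13465144 was among the 10 widest and the 10 strongest. It was 2944 bp long and had the top score of 680.88. The second in score, on I from 10552863 to 10554642, was 1780 bp long with 616.29. The peak on IV from 5946987 to 5947937 reached 601.77 within 951 bp, and that on IV from 4659665 to 4660577 reached 493.56 within 913 bp. On II the highest-scoring broad peak ran from 11977958 to 11979878, with 1921 bp and a score of 347. On V it ran from 10965559 to 10966863, with 1305 bp and 310.6. On X it ran from 4190895 to 4192280, with 1386 bp and 174.6. These 3 were below the highest narrower peaks of the same chromosomes, which scored 470.5 on II, 473.9 on V and 180.6 on X. On I, III and IV the highest-scoring peak was broad.

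Summits of broad peaks lay off the middle more often than those of narrower peaks. The summit is the position of the highest signal within a peak. Its distance from the nearer edge had a median of 28.0% of the width in broad peaks (interquartile range 20.3 to 38.7) and 41.5% in narrower ones (34.3 to 46.4), where 50 would be the exact middle. In 80 of 341 broad peaks (23.5%) the summit lay within 20% of the width from an edge, against 15 of 1221 narrower peaks (1.23%). The central 20% of the width held the summit of 74 broad peaks (21.7%) and of 683 narrower peaks (55.9%). An even spread along the width would put 20% of summits in that stretch, close to the share of broad peaks. The 20% of the width at each edge together held fewer broad summits than an even spread would. The median distance was 46.1% below 400 bp, 39.9% at 400 to 599 bp and 31.9% at 600 to 899 bp. It was 29.4% at 900 to 1199 bp, 26.2% at 1200 to 1799 bp and 28.8% at 1800 bp or more, with no step at the threshold. The shorter side had a lower quartile of 152 bp in narrower peaks. Short peaks thus had little room for a summit near an edge, and the width that chose the groups limits these shares. Both edges were used alike, with the summit nearer the left edge in 171 broad peaks and nearer the right in 170.

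In base pairs, a broad peak extended a median of 352 bp from the summit on its shorter side and 885 bp on its longer side. Narrower peaks extended 178 and 270 bp. The longer side was at least 2 times the shorter in 211 of 341 broad peaks (61.9%) and in 273 of 1221 narrower ones (22.4%). The widest peak showed the greatest asymmetry, with 4118 bp to the left of its summit and 382 bp to the right. By contrast, the strongest peak on III had 1637 bp on the left and 1306 bp on the right. Across the 4 score classes of the list, from lowest to highest, the median distance of broad summits to the nearer edge was 27.5%, 22.8%, 25.1% and 32.7% of the width, with no steady order. Where another listed peak lay within 5000 bp, the summit was on that neighbour's side in 88 of 150 broad peaks (58.7%, 95% Wilson interval 50.7 to 66.2) and 264 of 454 narrower ones (58.1%, 53.6 to 62.6). Since the direction of genes was not used, left and right do not stand for upstream and downstream.

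**Figure D2:**
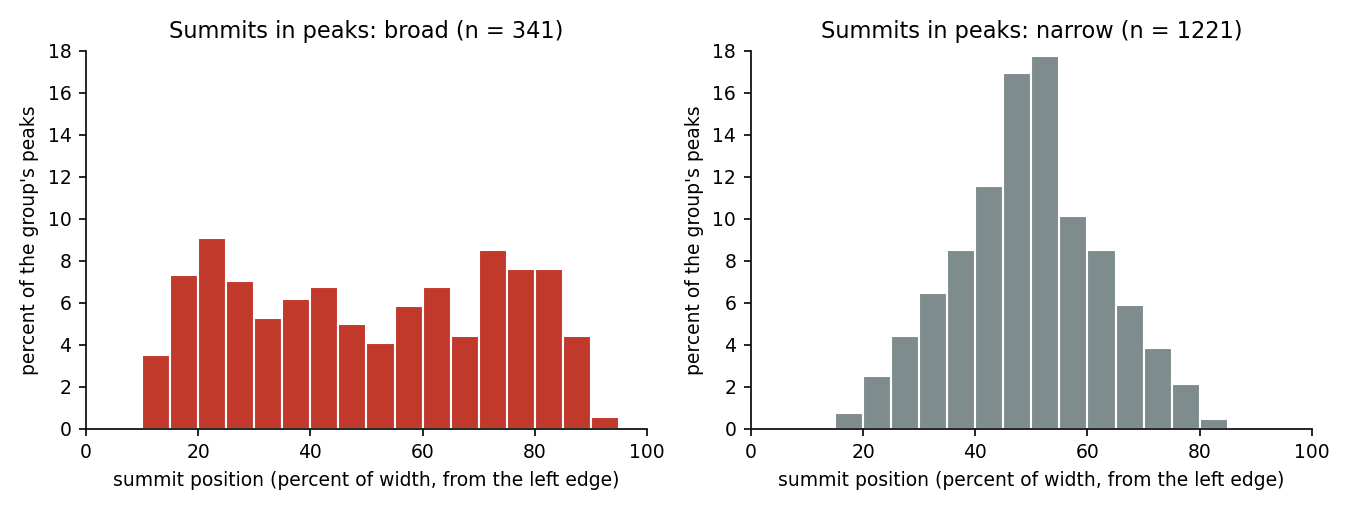
Share of peaks (percent of the group) by position of the summit along the peak (percent of width from the left edge, bins of 5 percent), for broad peaks on the left and narrower ones on the right. Summits of narrower peaks gather in the middle, where the central 20% of the width holds 55.9% of them. It holds 21.7% of the summits of broad peaks, which spread farther to both sides.

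Broad peaks were most frequent on chromosome IV and least frequent among the autosomes on II. On IV, 124 of 410 listed peaks were broad (30.2%, 95% Wilson interval 26.0 to 34.9), and on II 29 of 239 were (12.1%, 8.58 to 16.9). Chromosome I had 78 of 366 (21.3%, 17.4 to 25.8), III had 59 of 286 (20.6%, 16.3 to 25.7) and V had 47 of 247 (19.0%, 14.6 to 24.4). The intervals of I, III and V overlap one another, and that of II overlaps those of III and V but not that of I. The interval of IV lies above those of the other 4 autosomes, but only just above that of I. Under each alternative setting tried for these shares, the intervals of IV and I overlapped. On X, 4 of 14 listed peaks were broad (28.6%, 11.7 to 54.6), too few to place X in this order. Per Mb of the span between the outermost peaks of either antibody's list, broad peaks numbered 7.18 on IV, 5.19 on I, 4.29 on III, 2.27 on V, 1.90 on II and 0.231 on X.

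Broad peaks on IV had the lowest median score of the 6 chromosomes, and so had its narrower peaks. The median score of broad peaks was 62.2 on IV and 67.0 on V, against 94.0 on II, 121.2 on III, 128.3 on I and 115.0 on X. Narrower peaks had 46.8 on IV, and 51.4 to 58.8 on the other chromosomes. Within IV the median of broad peaks was 53.0 in the left part, 113.0 in the middle and 135.8 in the right part. Median widths of broad peaks were closer together, at 1247.5 bp on IV, 1130 bp on V, 1153 bp on II, 1239 bp on III and 1254.5 bp on I. The 4 broad peaks on X were 1005 to 1432 bp wide and each lay at least 265898 bp from the next listed peak. They scored 96.1 on X from 767311 to 768315, 174.6 from 4190895 to 4192280, 38.6 from 7230875 to 7232306 and 134.0 from 7823480 to 7824878.

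Along the autosomes, broad peaks of 1200 bp or more lay more in the outer parts than narrower peaks did. Worm autosomes are known for centres dense in genes and arms rich in repeats, and each chromosome span was cut into 3 equal parts. Outer parts contained 248 of 337 autosomal broad peaks (73.6%, 95% Wilson interval 68.6 to 78.0) and 784 of 1211 narrower ones (64.7%, 62.0 to 67.4), where the whole list had 66.7%. The difference was 8.85 percentage points (95% interval 3.24 to 14.05). By width, the share was 65.6% at 900 to 1199 bp, 80.8% at 1200 to 1799 bp and 81.6% at 1800 bp or more. Narrower peaks had 64.7% below 400 bp, 65.8% at 400 to 599 bp and 63.2% at 600 to 899 bp. Broad peaks under 1200 bp were thus like narrower ones in this share. They were unlike them in the left part of IV, which held 22.6% of them and 13.6% of narrower peaks. Over all autosomes together, the difference lay on the left, where the parts held 159 broad peaks (47.2%) and 441 narrower ones (36.4%). The right parts held 89 broad peaks (26.4%) and 343 narrower ones (28.3%). The autosomes were unlike in this. From I to V, broad peaks numbered 27, 15, 12, 90 and 15 on the left. On the right they numbered 31, 4, 38, 11 and 5. Narrower peaks numbered 74, 89, 51, 166 and 61 on the left, and 95, 53, 100, 57 and 38 on the right. IV thus held most of the left broad peaks, and I and III held more of both kinds on the right.

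One stretch held many of these peaks. The left part of IV held 90 of 341 broad peaks (26.4%, 21.997 to 31.3) and 166 of 1221 narrower ones (13.6%, 11.8 to 15.6), beside 16.4% of the list. By width, its share was 10.1% below 400 bp, 11.9% at 400 to 599 bp and 20.8% at 600 to 899 bp. It was 22.6% at 900 to 1199 bp, 29.7% at 1200 to 1799 bp and 30.6% at 1800 bp or more. The share thus rose with width, with no step at the threshold. Without the left part of IV, the outer parts held 64.0% of broad and 59.1% of narrower autosomal peaks, a difference of 4.83 points with an interval from -2.00 to 11.3 that includes 0. Without the whole of IV the difference was 8.37 points (1.16 to 15.0). Among peaks with scores above the list median it was 7.29 points (-0.0611 to 14.1), which also includes 0. The share of broad peaks among listed peaks was 35.2% in the left part of IV, 26.7% in its middle and 16.2% in its right part. Chromosome III showed another order, with 27.5% on the right, 10.6% in the middle and 19.0% on the left. Chromosome I had 26.7% on the left, 14.4% in the middle and 24.6% on the right.

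Left IV was dense in peaks of both kinds, and both had low scores there. Its broad peaks numbered 15.6 per Mb and its narrower ones 28.8 per Mb, each the highest of the 15 parts. Narrower peaks had a median score of 44.7 in left IV and 53.9 elsewhere. The first 4 Mb of IV held 75 broad peaks, in windows of 18, 19, 15 and 23 per Mb, where the median 1 Mb window of the genome held 2. In the fullest window, from 3 to 4 Mb, 23 of 51 listed peaks were broad (45.1%). Broad peaks of the left part had a median score of 53.0, and 48 of the 90 (53.3%) scored below the list median, compared with 70 of the 251 broad peaks elsewhere (27.9%), whose median score was 107.1. Median widths were 1257 bp in left IV and 1189 bp elsewhere. Outside IV the fullest window was on III from 13 to 14 Mb, with 11 broad of 27 listed peaks and a median score of 81.8 in the broad ones. On I the first 1 Mb held 8 broad of 17 listed peaks, with a median score of 111.4. The window of I from 10 to 11 Mb held 8 broad of 29 listed peaks, with a median score of 203.5.

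**Figure D3:**
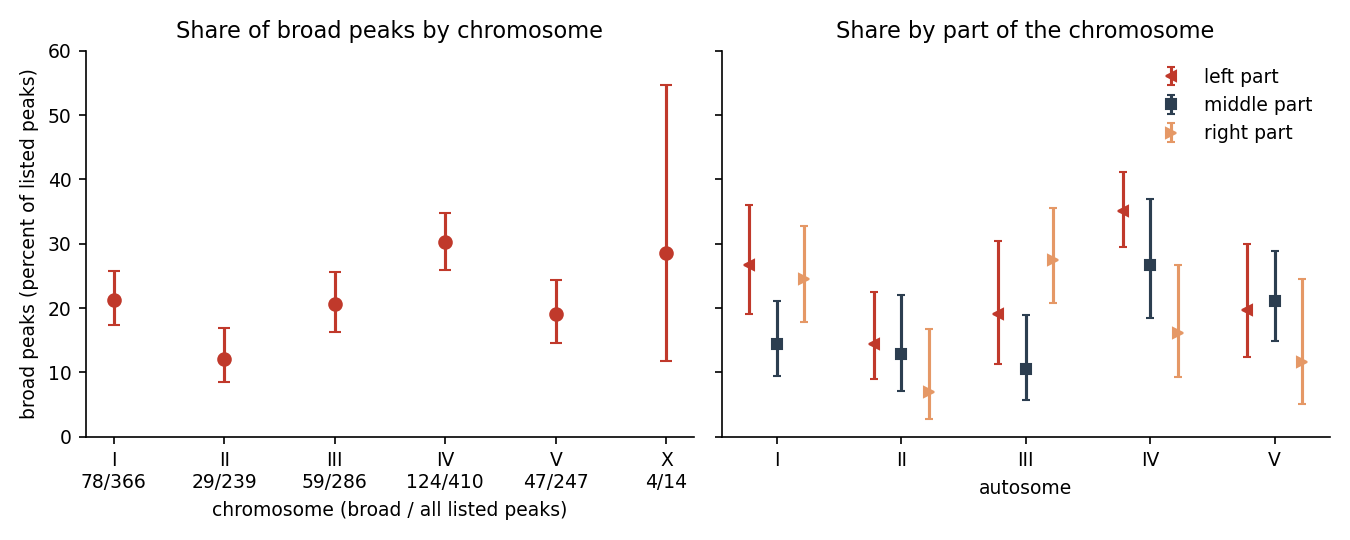
Broad peaks as a percent of listed H3K4me3 peaks, with 95% Wilson intervals, for each chromosome (left; broad and all peaks counted under each) and for the left, middle and right part of each autosome (right). The left part of IV is highest at 35.2% and the right part of II lowest at 7.02%.

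Broad and narrower peaks were spaced in a like way at short range and differed somewhat at intermediate range. Spacing was measured between listed peaks only, and peaks called but not listed may lie between them. The median gap from peak edge to the nearest other listed H3K4me3 peak was 7813 bp for broad peaks (95% interval 5431 to 10431) and 10501 bp for narrower ones (9128 to 11897), and the interval of the difference, -5449 to 268.2 bp, includes 0. Within 500 bp, 62 of 341 broad peaks (18.2%) and 265 of 1221 narrower ones (21.7%) had a neighbour. Within 5000 bp, 150 broad peaks (44.0%, 38.8 to 49.3) and 454 narrower ones (37.2%, 34.5 to 39.9) had one, beside 38.7% of the list. The difference at 5000 bp was 6.81 points (0.949 to 12.7), and without the left part of IV it was 4.45 points (-2.07 to 11.2). Its interval included 0 in 7 of 12 alternative settings. By width, the median gap was 10997 bp below 400 bp and 12090 bp at 400 to 599 bp. It was 7280.5 bp at 600 to 899 bp and 7367.5 bp at 900 to 1199 bp. Wider classes had 9247 bp (1200 to 1799 bp) and 4506 bp (1800 bp or more). The gap, and the share with a peak within 5000 bp, thus showed no step at the threshold.

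Peaks next to each other in the list were closer when both were broad. Of 87 neighbouring pairs of broad peaks, 32 had a gap of at most 5000 bp (36.8%, 27.4 to 47.3). The share was 109 of 508 for a broad peak beside a narrower one (21.5%, 18.1 to 25.2) and 195 of 961 for a narrower pair (20.3%, 17.9 to 22.9). In the left part of IV the shares were alike, at 36.1% of 36 broad pairs, 29.6% of 108 mixed pairs and 33.3% of 111 narrower pairs. Elsewhere they were 37.3% of 51, 19.3% of 400 and 18.6% of 850. Gaps of at most 500 bp showed no such order, with 9.20%, 9.84% and 11.6% over the whole list.

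Linked by gaps of at most 5000 bp, 71 broad peaks formed 35 groups and 270 had no other broad peak that near. A narrower peak can lie between the members of a group, so these links outnumber the neighbouring broad pairs above. All groups were pairs except 1 of 3 peaks, on I from 530257 to 537858, with scores from 40.5 to 297.5. Chromosome IV held 17 of the groups, 16 of them in its left part, and I held 8, III 7, V 2 and II 1. The closest pair lay on I, where a peak from 10434358 to 10436011 scored 220.9 and one from 10436087 to 10437089 scored 119.2 across a gap of 75 bp. The second, on I at 4583692 to 4584924 and 4585009 to 4585945, had a gap of 84 bp and scores of 176.5 and 157.7. Another pair on I joined the 4485 bp peak to one of 1211 bp from 14860806 to 14862016 across 147 bp, so that both spanned 5843 bp together. One more on I, at 109192 to 110817 and 111045 to 111971, had a gap of 227 bp. The last of the 5 closest lay on V at 10971921 to 10974480 and 10974735 to 10976239, with a gap of 254 bp, a span of 4319 bp and scores of 35.1 and 44.6.

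**Figure D4:**
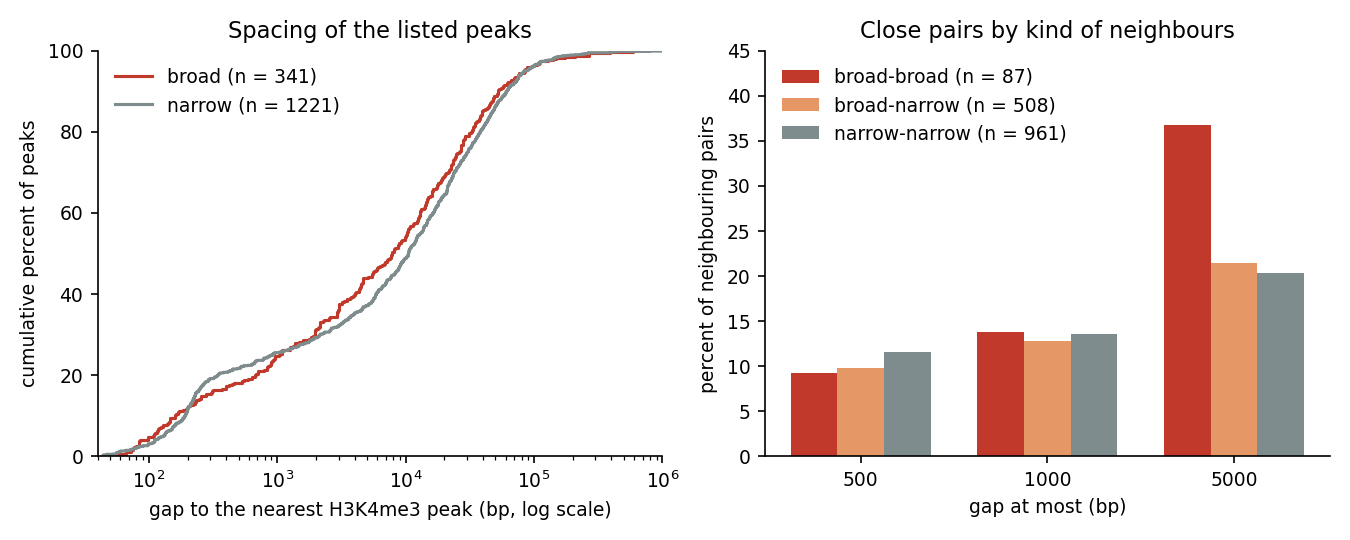
Left, cumulative percent of broad (red) and narrower (grey) H3K4me3 peaks by gap to the nearest other listed peak (bp, log scale). Right, percent of neighbouring pairs with a gap of at most 500, 1000 or 5000 bp by kind of pair, where pairs of broad peaks reach 36.8% at 5000 bp, mixed pairs 21.5% and narrower pairs 20.3%.

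Few broad peaks overlapped an ELT-2 peak, and few narrower ones did. An overlap of at least 1 bp was found for 10 of 341 broad peaks (2.93%, 95% Wilson interval 1.60 to 5.31) and 33 of 1221 narrower ones (2.70%, 1.93 to 3.77), beside 2.75% of the list. The difference of 0.230 percentage points had an interval from -1.48 to 2.73. An ELT-2 summit lay inside 2.64% of broad and 2.70% of narrower peaks. Per 100 kb of covered length there were 1.92 ELT-2 summits inside broad peaks (exact Poisson interval 0.877 to 3.64) and 5.47 inside narrower ones (3.76 to 7.68). With like shares per peak, these values differ because the divisor is the width that chose the groups, so they are a description only. The names of the deposited lists read as if high-occupancy target (HOT) regions, where many factors bind, had been removed, and overlaps there would be missing from both groups.

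In 4 of the 10 broad overlaps the ELT-2 summit lay under 100 bp from the H3K4me3 summit, against 30 of the 33 narrower overlaps. Median distances between summits were 399 bp at broad and 21 bp at narrower peaks. The width that chose the groups also limits how far apart the summits of overlapping peaks can lie, so these distances are a description only. The 100 bp limit was taken over from an earlier look at these lists. The ELT-2 peaks met by broad peaks were wide themselves, with a median of 831 bp, where those met by narrower peaks had 359 bp and the whole ELT-2 list had 343.5 bp. Of these ELT-2 peaks, 6 of 10 at broad peaks and 27 of 33 at narrower ones scored below the ELT-2 list's median of 43.8, below which 50% of that list lies.

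The 10 sites were of several kinds. The summits nearly coincided on II from 3036301 to 3037453, from 1644354 to 1645317 and from 2525414 to 2526631, and on IV from 3417614 to 3418539, at 15, 22, 42 and 52 bp. There the H3K4me3 scores were 48.9, 36.1, 46.3 and 45.6, all below the list median. On I, a 2796 bp peak from 1735710 to 1738505 with a score of 32.1 lay almost wholly under an ELT-2 peak of 3213 bp, the widest of that list, with a score of 37.6. On IV, the 2351 bp peak from 3554153 to 3556503 contained a 1690 bp ELT-2 peak, with scores of 37.9 and 33.7.

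The 3 highest-scoring of these 10 ELT-2 peaks met broad H3K4me3 peaks off the summit. On IV, the 3018 bp peak from 3609246 to 3612263 overlapped the ELT-2 peak from 3611595 to 3612311, which scored 282.6 and had its summit 1007 bp away. On I, the peak from 1835301 to 1836799, with a score of 181.4, contained an ELT-2 peak of 345 bp that scored 151.8 at 427 bp. On III, the peak from 13604441 to 13605966 scored 92.9 and overlapped an ELT-2 peak with a score of 90.4, whose summit lay outside it at 450 bp. At the remaining site, on IV from 3855835 to 3857087, the H3K4me3 peak scored 52.7 and contained an 890 bp ELT-2 peak that scored 30.1 at 515 bp.

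Overlap was found mostly among weak peaks of either width. In the lowest of the 4 score classes, 3 of 57 broad and 17 of 334 narrower peaks overlapped an ELT-2 peak, and in the next 4 of 61 and 14 of 329 did. In the class above, 2 of 75 broad and 2 of 315 narrower peaks did. In the highest class 1 of 148 broad peaks did (0.676%), the peak on I from 1835301 to 1836799, and 0 of 243 narrower ones.

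At longer range the distances to ELT-2 differed by less than their intervals. The median distance from a broad peak's summit to the nearest ELT-2 summit was 66523 bp (95% interval 55098 to 79009), against 73946 bp for narrower peaks (67141 to 81199), and the difference of -7423 bp had an interval from -20956 to 6797. Without the left part of IV the medians were 75976 and 75785 bp. An ELT-2 summit lay within 5000 bp of 29 broad peaks (8.50%, Wilson interval 5.99 to 11.9) and 88 narrower ones (7.21%, 5.89 to 8.80), beside 7.49% of the list. Distances followed the chromosome, with medians for broad peaks of 27711 bp on II, 39361 bp on V, 58134 bp on IV, 97801 bp on I and 99899 bp on III. The narrower peaks gave 45180, 48541, 65970, 111110 and 128946 bp on the same chromosomes. On each of these 5 the broad median was the lower, and on X the broad median of 73196 bp (4 peaks) was above the narrower one of 40353 bp (10 peaks). Within parts of the autosomes this order was not always kept. The broad median was the higher in the middle of I (137019 against 94077 bp). It was also higher in the right part of II, the left part of III and the right part of IV. In the remaining parts it was the lower.

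Of the 29 broad peaks with an ELT-2 summit within 5000 bp, 19 did not overlap an ELT-2 peak. The 29 comprised 10 on IV, 6 each on I and II, 5 on V and 2 on III. The nearest without overlap was a 1017 bp peak on IV from 8482290 to 8483306, with an ELT-2 summit of score 74.0 at 979 bp. A stronger one, on IV from 8378128 to 8379488 with a score of 226.0, had an ELT-2 summit at 1192 bp. On I, the 945 bp peak from 1832759 to 1833703 scored 240.7 and lay 3297 bp from the same ELT-2 summit as its overlapping neighbour. The 10 strongest broad peaks were all farther away, between 13818 and 171896 bp. Most peaks of the list were, as only 8.50% of broad peaks and 7.49% of the list had an ELT-2 summit within 5000 bp.

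**Figure D5:**
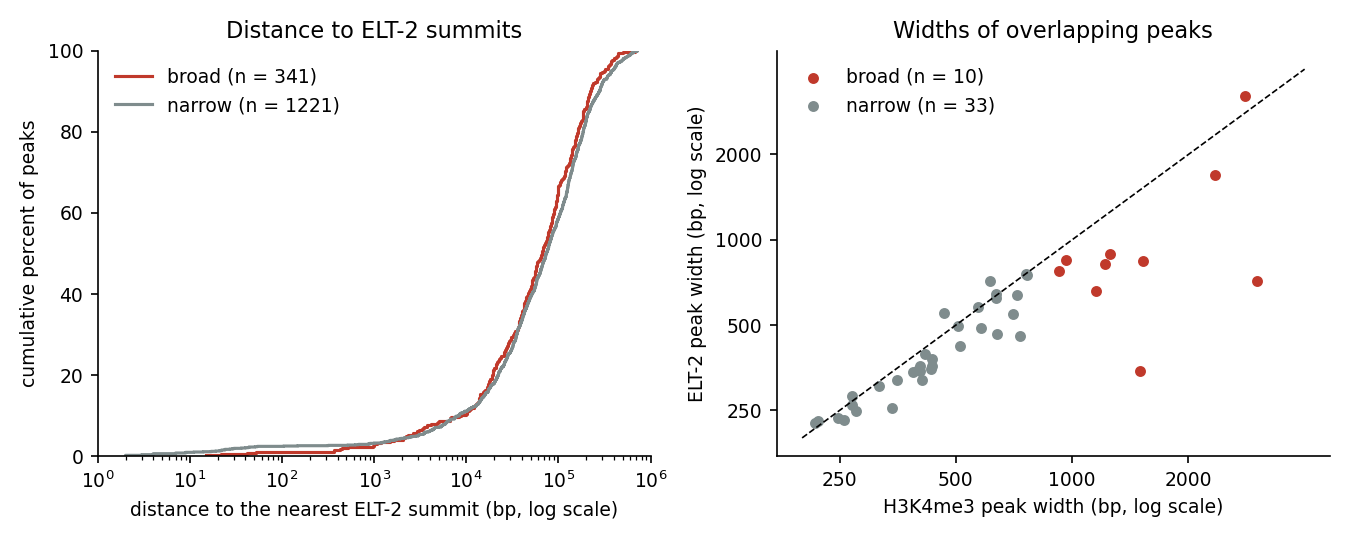
Left, cumulative percent of broad (red) and narrower (grey) H3K4me3 peaks by distance from their summit to the nearest ELT-2 summit (bp, log scale), where both curves run close together above 1000 bp. Right, width of the ELT-2 peak against width of the H3K4me3 peak at the 10 broad and 33 narrower overlaps (log scales, equal widths dashed), with 9 of the 10 broad peaks wider than their ELT-2 partner.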

How the data were processed

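The authors deposited 1 peak list and 1 summit list for each antibody, H3K4me3 and ELT-2, with a score for every peak. For the ChIP libraries, Bowtie 1.1.0, MACS2 2.0.9, bedtools and the build ce10 stand in the submitters' processing notes, with no settings. The sources used here do not give how replicates were combined, which control was used or the scale of the score. List names read as IgG, blacklist and HOT regions removed and scores above 30. Every score was above 30, and the removal could not be tested on the lists. The running numbers in the peak names skip many values, so peaks called but not listed may lie between listed ones. A number directly before or after was also listed for 34.3% of broad and 43.2% of narrower peaks. The difference was -8.85 points (-14.4 to -2.98), and its cause was not tested. Gaps, neighbouring pairs and groups are thus those of listed peaks only.

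Peaks and summits were joined by name. Shares have Wilson intervals, medians have binomial order-statistic intervals, and differences have square-and-add intervals. Chromosome spans ran between the outermost peaks of either list. The sites named were the 10 widest and 10 highest-scoring broad peaks, the highest of each chromosome, those on X, those overlapping ELT-2, 3 on each side of the threshold and the 5 closest pairs, with a few given as examples. Others (the densest windows, the group of 3, sites near ELT-2 without overlap) were chosen after their values were seen. The members and measures were chosen with earlier results of these data known. The measures were tested on simulated data. Python 3.11.15, numpy 2.4.6, pandas 2.3.3, scipy 1.17.1 and matplotlib 3.10.9 were used. Alternatives were other widths, scores, distances and overlap rules, joined peaks and chromosomes left out.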

Additional observations from a re-analysis of the deposited data

How the results depend on the processing

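No paired analysis was possible because each antibody has 1 list for all its libraries, and for the same reason no replicate could be left out. Of 101 differences between broad and narrower peaks recomputed under the alternatives, 87 kept their sign and 14 changed it. Of these 14, 13 were of ELT-2 measures or of the left-right summit offset, whose reported intervals included 0. The other was the share with another peak nearby, at -0.919 points when near meant 1000 bp. The interval for the outer parts excluded 0 in 9 of 11 alternatives, and that for a near peak in 5 of 12. Leaving out the left part of IV was chosen after seeing the data. The median score of broad peaks was 143.2 among scores above the list median (difference from narrower peaks 50.2), 102.8 without IV and 107.1 without left IV (difference 53.2). The difference in summit distance from the edge was -11.6 points among scores above the list median. The outer-part share of broad peaks was 81.0% at 1200 bp or more (difference 16.2 points), 78.6% without V, 64.0% without left IV and 58.8% with the outer 25% at each end in place of 3 equal parts. Their median gap was 24806 bp among scores above the list median, 13260 bp with peaks within 500 bp joined and 10662 bp without left IV. Their share with a near peak was 28.7% among scores above the list median, 29.6% joined, 24.6% at 1000 bp and 69.2% at 20000 bp. ELT-2 overlap was 1.35% among H3K4me3 scores above the list median and 1.17% among ELT-2 scores above theirs, where the median ELT-2 distance was 124446 bp. The share near an ELT-2 summit was 5.38% and 4.40% under the same 2 restrictions, 2.64% at 1000 bp and 21.7% at 20000 bp. Broad shares of I, II, III, IV and V were 30.6%, 20.1%, 26.6%, 38.8% and 29.6% at 750 bp or more, and 12.3%, 5.44%, 11.5%, 16.1% and 6.88% at 1200 bp or more. With peaks within 500 bp joined they were 30.6%, 18.2%, 29.5%, 38.4% and 28.0%. Among scores above the list median those of I, II, III and IV were 29.7%, 17.5%, 28.0% and 37.6%. IV was highest and II lowest of the autosomes in each of these, but the intervals of IV and I overlapped in each. At 750 bp or more they were 34.2 to 43.6 on IV and 26.1 to 35.5 on I. The cause of these shifts was not tested beyond what the settings themselves fix. Intervals cover counting error only, and unknown read depth limits what the absence of a peak can show.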
